A study of Mus musculus with 2 samples.

Results

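Tendon-gate cells of the E18.5 mouse femur are described here across all genes in a wild-type (WT) and a Bmx-CreER Wls library. A cell entered the gate when it held at least 2 UMIs of Tnmd and at least 3 UMIs of Tnmd, Kera and Scx together, where a UMI (unique molecular identifier) marks 1 captured transcript molecule. Only barcodes with over 200 but under 5000 detected genes, and with less than 30% of their UMIs from mitochondrial genes, were considered. It took 181 of 12356 kept cells, 76 of 5736 in WT and 105 of 6620 in Bmx-CreER Wls. The members were thus chosen by their Tnmd, Kera and Scx counts, and the levels of these 3 genes are given as a description only. A group of 18 of the 181 cells carried smooth muscle transcripts and no Kera, Scx or Mkx UMI, and results are therefore given with and without them.

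Tendon cells, or tenocytes, lay down the parallel type I collagen fibrils that link muscle to bone. The transcription factors Scx and Mkx drive their differentiation, with Scx acting early in tendon progenitors and Mkx promoting type I collagen production. Tnmd encodes tenomodulin, a membrane glycoprotein with an antiangiogenic domain that marks differentiated tendon and ligament, and Kera encodes keratocan, a small leucine-rich keratan sulfate proteoglycan that binds collagen fibrils. In the mm10 genome, which RefSeq calls GRCm38, Tnmd lies at chrX:133850980-133865577, Kera at chr10:97606879-97613692 and Scx at chr15:76457452-76459458, each on the plus strand.

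The study asked how the cells of the fetal bone marrow support incoming haematopoietic cells. Both libraries hold polyA RNA of femoral cells of embryos at E18.5, prepared with the BD Rhapsody whole-transcriptome kit. The paper used C57BL/6 mice for wild-type marrow and kept its conditional mutants on a predominantly C57BL/6 background. The cells were freed with collagenase type 4 after crushing and depleted of cells bearing Ter119, Gr-1, B220 or CD3e. The mutant embryos carried Bmx-CreERT2 and floxed Wls, so that tamoxifen given to the dam removes Wls, which every Wnt ligand needs for its secretion, in arterial endothelial cells rather than in tendon cells. The sources name neither the litter nor a tamoxifen treatment of the WT library, nor how many embryos went into either library. With 1 library per genotype no test between genotypes was possible, and genotype and library cannot be told apart.

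The WT library held 5998 barcodes and 22708005 UMIs and the Bmx-CreER Wls library 6825 barcodes and 24704991 UMIs, with medians of 3128 and 3067 UMIs in kept cells. In endothelial-gate cells, which hold the cells targeted in the mutant, Wls stood at 45.4 UMIs per 1000000 UMIs (CPM; 36.5 to 55.9) in WT and 21.8 CPM (15.5 to 29.8) in Bmx-CreER Wls. Arterial cells were not separated within that gate. A total of 49 barcodes occurred in both libraries, and 2 members carried 1 of them. Without these barcodes the gate took 1.32% of kept WT cells and 1.58% of kept Bmx-CreER Wls cells. Intervals throughout are exact 95% intervals that cover counting error only, and cells of 1 library are not replicates.

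Members made up 1.32% (1.05 to 1.66) of kept WT cells and 1.59% (1.30 to 1.92) of kept Bmx-CreER Wls cells. The ratio of these shares, mutant over WT, was 1.20 (0.883 to 1.63), an interval that holds 1. Members had a median of 3569.5 UMIs (1323 to 8736) in WT and 3607 UMIs (672 to 8653) in Bmx-CreER Wls, a little above the other kept cells, and their median mitochondrial shares were 3.97% and 4.11%. The members' UMIs summed to 289219 and 405887, which limits precision for genes at low level.

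The gate collected most of the Tnmd in the dataset. Members held 603 of the 753 Tnmd UMIs of kept WT cells (80.1%) and 1472 of 1580 in Bmx-CreER Wls (93.2%). For Kera the share was 64.6% in WT and 83.2% in Bmx-CreER Wls, and for Scx 33.8% and 44.0%, so most Scx transcripts came from cells outside the gate. Just inside the threshold, 23 WT and 9 Bmx-CreER Wls members had a sum of exactly 3. Just outside it, 30 WT and 23 Bmx-CreER Wls cells held 2 Tnmd UMIs and nothing of Kera or Scx, and 7 and 5 cells reached a sum of 3 with no Tnmd.

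The rule genes were rare in endothelial-gate cells, which should lack them. In WT, 0.355% of 563 endothelial-gate cells had a Tnmd UMI (median depth of the gate 3091 UMIs) and in Bmx-CreER Wls 0 of 442 had one, which allows a share of up to 0.831%. Kera was at 0 UMIs in the endothelial gate of both libraries, and Scx at 0 in WT and at 4 UMIs in 3 of 442 cells (0.679%) in Bmx-CreER Wls. The rule itself raises Kera and Scx in members, so their shares are given only as a description. In all, 43.4% of WT members and 47.6% of Bmx-CreER Wls members had a Kera UMI, 21.1% and 36.2% an Scx UMI and 21.1% and 32.4% an Mkx UMI. With each cell thinned to 1000 UMIs the shares were 23.7% and 25% for Kera, 9.21% and 14.4% for Scx, and 6.58% and 15.4% for Mkx.

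The 18 members set apart passed a mural gate, chosen after the data were seen, of at least 1 UMI of Notch3 and at least 3 of Acta2, Tagln and Myh11 together. Notch3 is a receptor of mural cells, the smooth muscle cells and pericytes around vessels, and the other 3 genes encode contractile proteins of smooth muscle. There were 3 such members in WT (3.95%, 0.822 to 11.1) and 15 in Bmx-CreER Wls (14.3%, 8.22 to 22.5). Their summed contractile UMIs ran from 33 to 59 (median 40) in WT and from 26 to 192 (median 85) in Bmx-CreER Wls, while each of the other 163 members held 0 or 1. No member lay between these ranges. Notch3 did not separate the members as cleanly. In Bmx-CreER Wls 1 member outside the mural gate held 15 Notch3 UMIs and 0 of Kera, Scx, Mkx and Thbs4. It had 9 Col1a1 UMIs, the lowest count of the non-mural members, and was kept among them.

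**Figure D1:**
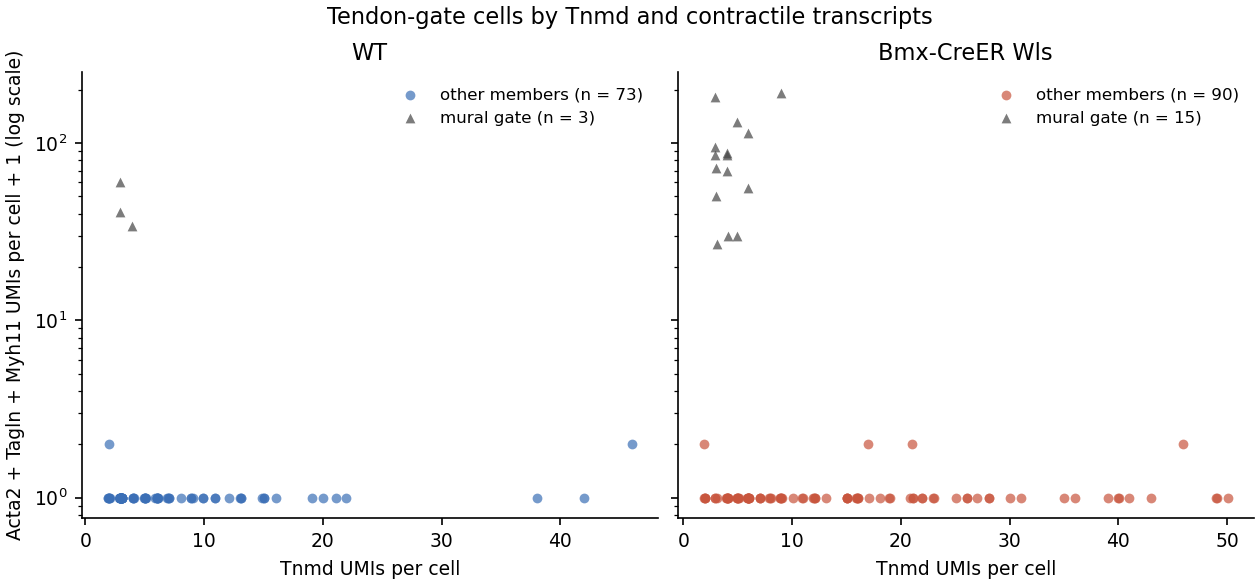
Each point is 1 tendon-gate cell, with its Tnmd UMIs on the x axis and its summed Acta2, Tagln and Myh11 UMIs plus 1 on a log y axis, for WT (left) and Bmx-CreER Wls (right). Mural-gate members (triangles, 3 and 15) hold 26 to 192 contractile UMIs and 3 to 9 Tnmd UMIs, and the other members (circles, 73 and 90) hold 0 or 1 contractile UMI and 2 to 50 Tnmd UMIs.

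Mural members had Tnmd and lacked most other tendon genes examined. Their Tnmd ran from 3 to 4 UMIs per cell in WT and from 3 to 9 in Bmx-CreER Wls. Kera, Scx, Mkx, Chodl and Mfap4 were at 0 UMIs in all 18, and Thbs4 gave a single UMI, while Fmod stood at 0 CPM in WT and 473 CPM in Bmx-CreER Wls. A single Bmx-CreER Wls cell held 21 of these 32 Fmod UMIs, and without it the level was 180.2 CPM. Col1a1, a chain of type I collagen, stood at 3896 and 1937 CPM in them, against 73007 and 62678 CPM in the other members. Rgs5, a pericyte and smooth muscle marker, stood at 8640 CPM (7045 to 10488) and 3667 CPM (3224 to 4153). The label tendon thus goes against the leading genes of these 18 cells.

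Tnmd was also present in mural-gate cells outside the tendon gate. In these 72 WT and 70 Bmx-CreER Wls cells Tnmd stood at 129 CPM (88.8 to 181) and 132 CPM (91.6 to 183), with a UMI in 31.9% and 34.3% of cells, or 18.1% and 15.7% after thinning. Kera was at 0 in all of them and Scx at 1 UMI in each library. Both shares lie above those of the endothelial gate at a similar depth (median 3027.5 and 3604 UMIs in the mural gate). Mural members were deeper than the other members, with medians of 4459 and 4532 UMIs against 3551 and 3548, and the part of depth or of joined cells in their passing the tendon gate was not tested.

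Without mural members, 73 WT and 90 Bmx-CreER Wls cells remained, 1.27% (0.999 to 1.6) and 1.36% (1.09 to 1.67) of kept cells. The ratio of the shares was then 1.07 (0.776 to 1.48). Per cell, Tnmd ran from 2 to 46 UMIs (median 5) in WT and from 2 to 50 (median 12) in Bmx-CreER Wls. Kera reached 18 and 14 UMIs with medians of 0 and 1, and Scx reached 2 and 7 with medians of 0. The ranges of Tnmd and Kera overlap widely between the libraries, whereas no non-mural WT member held more than 2 Scx UMIs.

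Genes outside the rule bear on the label. Mkx stood at 79.3 CPM in non-mural WT members and 136 CPM in Bmx-CreER Wls, 11.9-fold (7.26 to 18.8) and 13.8-fold (9.85 to 19.0) the level of the other kept cells. Thbs4, whose thrombospondin-4 organises collagen at tendons and the muscle junction, stood at 1251 and 1366 CPM against 40.6 and 42.8 CPM in other cells. It was detected in 75.3% and 81.1% of non-mural members, with a median of 3 UMIs in both libraries. Col1a1 ran from 30 to 761 UMIs per cell (median 232) in WT and from 9 to 604 (median 203) in Bmx-CreER Wls, and Col1a2 from 28 to 486 (median 179) and from 18 to 495 (median 155).

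Not every textbook tendon gene was high. Fmod, the fibril-binding proteoglycan fibromodulin, stood at 1802 and 2282 CPM in non-mural members but at 1063 and 2667 CPM in other kept cells, of which cartilage cells are the largest part. Comp, a cartilage and tendon matrix protein also known as thrombospondin-5, was at 97.3 and 47.3 CPM against 1021 and 1662 CPM. Members thus matched the tendon label in Thbs4 and not in Comp, with Fmod differing in direction between the libraries. Mkx was also high, but on 22 and 46 UMIs, which is below the count minimum given further on. Type I collagen was high too, but it did not set members apart from osteoblast-gate cells.

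Against all other kept cells, 115 of 4993 genes tested (2.30%) were at least 2-fold higher in the members of both libraries and 325 (6.51%) at most 0.5-fold. Genes counted here had at least 10 UMIs expected in the members of each library, so genes found almost only in members can miss the count. Without mural members 111 of 4825 (2.30%) were higher and 382 (7.92%) lower. The median log2 ratio over all genes tested was −0.27 in WT and −0.12 in Bmx-CreER Wls, so ratios stand against a background slightly below 1. The composition of the other cells differed between libraries, with the chondrocyte gate at 45.1% of kept WT and 64.8% of kept Bmx-CreER Wls cells and the fibroblast-like gate at 11.5% and 6.01%.

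The 20 leading genes were ranked by the smaller of the ratios in the 2 libraries, among genes with at least 100 UMIs in members over both libraries and at least 20 in each. Of the 20, 7 missed the minimum on expected UMIs and entered only through their UMIs in members, so their ratios are a description. Thbs4 led, with ratios without mural members of 30.8 (27.1 to 34.9) in WT and 31.9 (28.5 to 35.6) in Bmx-CreER Wls. Mfap4, a microfibril-associated glycoprotein, was 20.4-fold and 20.6-fold higher, and ran from 0 to 77 UMIs per cell (median 9) in WT and from 0 to 51 (median 8.5) in Bmx-CreER Wls. Chodl, which encodes the transmembrane lectin chondrolectin, reached 21.6-fold (15.7 to 29.3) and 89.8-fold (70.2 to 115). Zfp185, whose product binds actin, was 22.8-fold and 67.3-fold higher. These last genes had few UMIs in other cells, and members held 55.9% of the Chodl and 48.7% of the Zfp185 UMIs of the Bmx-CreER Wls library, against 21.4% and 22.3% in WT.

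Further leading genes were as follows. Postn, which encodes the collagen-binding periostin, was 8.32-fold and 10.25-fold higher, at 3875 and 2619 CPM. Thbs2, encoding thrombospondin-2, was 7.36-fold and 8.51-fold higher, Fndc1 9.09-fold and 10.8-fold, and Abi3bp 8.92-fold and 7.94-fold. The small leucine-rich proteins Aspn (asporin) and Ogn (osteoglycin) were 6.08-fold and 9.70-fold, and 6.39-fold and 6.87-fold higher. Egfl6, a secreted adhesion protein, was 14.03-fold and 18.8-fold higher. Spon2, encoding spondin-2, was at 11.9-fold (8.70 to 16.0) in WT and 42.5-fold (33.3 to 54.1) in Bmx-CreER Wls. The gene Cpm, a membrane carboxypeptidase whose name is unrelated to the unit, was 16.7-fold and 12.2-fold higher and Htra1, a secreted serine protease, 9.90-fold and 7.37-fold. The homeobox gene Meox1 was 6.6-fold and 12.4-fold higher. Nexn, an actin-binding muscle protein, was the leading gene that leaned on mural members: its ratio in Bmx-CreER Wls was 12.5 with them and 3.47 without them.

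**Figure D2:**
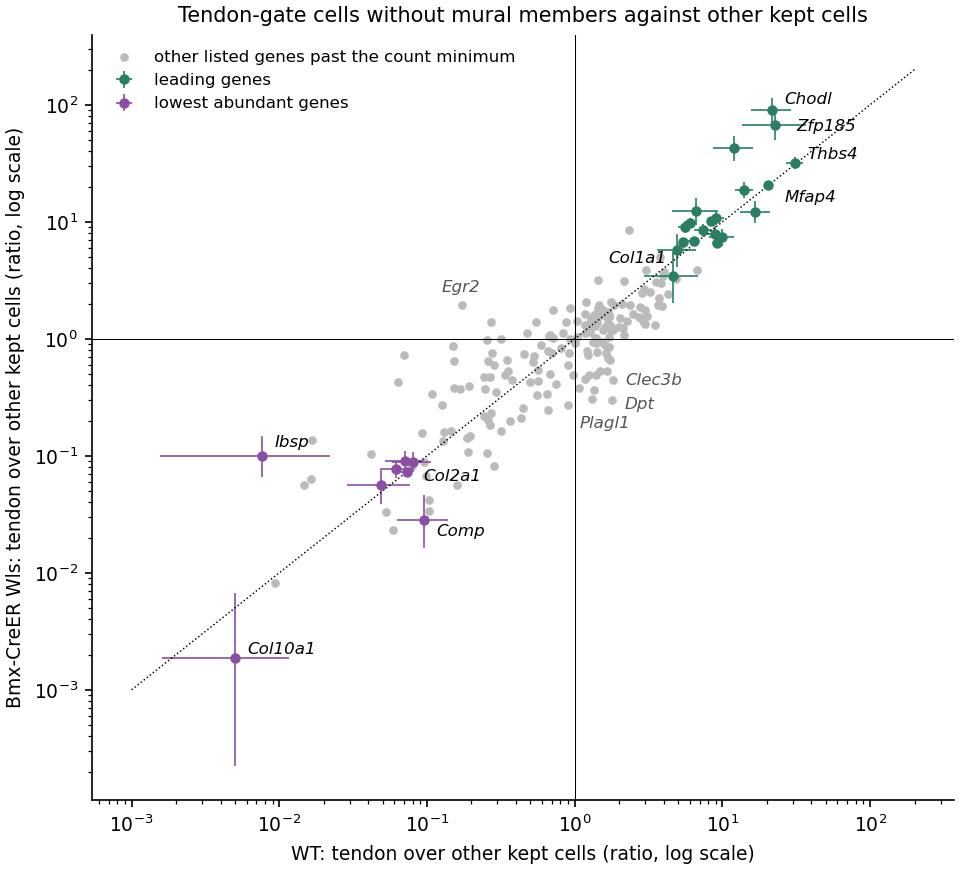
Each point is a gene, with its level in non-mural tendon-gate cells over that in all other kept cells in WT (x axis) and in Bmx-CreER Wls (y axis), both on log scales with exact 95% intervals for the named sets. Leading genes (green) such as Thbs4 lie near the diagonal at about 31-fold in both libraries, Chodl and Zfp185 lie above it, the lowest abundant genes (purple) are mostly cartilage collagens, and Clec3b, Dpt, Plagl1 and Egr2 lie on opposite sides of 1.

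Tendon matrix genes were found in both directions. Without mural members, 7 of the 23 members of this list tested were higher in both libraries (Aspn, Dcn, Fbln1, Ogn, Postn, Thbs2 and Thbs4) and 4 lower (Chad, Comp, Matn4 and Prelp), against 2.30% and 7.92% of all genes. The list's median log2 ratio was 1.11 in WT and 0.72 in Bmx-CreER Wls. Dcn, encoding the fibril-binding proteoglycan decorin, was 2.95-fold and 2.67-fold higher, at 858 and 520 CPM. Chad (chondroadherin) was 0.19-fold and 0.14-fold, and Prelp 0.27-fold and 0.23-fold.

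The collagen list holds fibril-forming, fibril-associated and other collagens, such as those of types VI and VIII, and its genes went in both directions. Of the 19 tested, 9 were higher in both libraries, Col8a1 and Col8a2 among them, and 4 lower, against 2.30% and 7.92% of all genes. The list's median log2 ratio was 1.89 and 0.94. Col1a1 was 5.4-fold and 6.74-fold higher, Col1a2 5.15-fold and 6.05-fold, and Col3a1, which encodes the type III collagen of thin fibrils, 4.04-fold and 3.71-fold. Col14a1, a fibril-associated collagen of tendon and skin, was 9.18-fold (8.54 to 9.87) and 6.65-fold (6.09 to 7.24), and Col12a1, its relative, 4.29-fold and 2.39-fold. Those lower were Col11a1, Col11a2, Col22a1 and Col27a1, of which Col11a1, Col11a2 and Col27a1 are collagens of cartilage.

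Genes of collagen synthesis and crosslinking were found in both directions. Of 23 tested, 3 were higher and 3 lower (Loxl3, Loxl4 and Pcolce2), against 2.30% and 7.92% of all genes, with medians of 0.31 and 0.03 on the log2 scale. Lox, the lysyl oxidase that crosslinks collagen, stood at 1222 and 1014 CPM, 5.59-fold and 9.06-fold the other cells. Pcolce, which enhances procollagen cleavage, was 3.23-fold and 2.52-fold higher, and Creb3l1, a transcription factor for type I collagen genes, 3.03-fold and 3.9-fold. Adamts2, also of this list, was the last of the 20 leading genes but missed the minimum on expected UMIs and is not in this count.

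Among the tendon regulators, few had enough transcripts to count. Of the 15 genes in this list 7 were tested, 0 were higher and Sox9, the cartilage transcription factor, was lower at 0.13-fold and 0.16-fold. Over all genes tested, 2.30% were higher and 7.92% lower. The median log2 ratio of the 7 was −1.06 in WT and −0.89 in Bmx-CreER Wls. Summed, the list stood at 1352 and 2847 CPM in non-mural members against 2874 and 3820 CPM in other kept cells. Below the count minimum, Etv4 gave 4 and 14 UMIs, Eya2 8 and 13 UMIs and Six2 7 and 26 UMIs in non-mural members, with ratios from 4.62 to 14.2. Mkx, with 22 and 46 UMIs, also missed the minimum. Values of the other untested genes of this list are not given here.

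In the TGF-beta and BMP list, 2 of 12 tested genes were higher and 3 lower, against 2.30% and 7.92% of all genes. The ligands were the higher ones: Tgfb2 at 133 and 183 CPM, 2.17-fold and 3.15-fold, and Tgfb3 at 155 and 118 CPM, 3.73-fold and 2.25-fold. Both ligands act upstream of Scx in embryonic tendon. The lower ones were the ligand Gdf10 and the BMP or TGF-beta response genes Id1 and Smad7. Ltbp2, which belongs to the latent TGF-beta binding protein family, gave 14 UMIs in each library and missed the count minimum. Values of the other untested genes among the 23 of this list are not given here.

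The FGF and Wnt lists are read against 2.30% of all genes higher and 7.92% lower. In the FGF list 0 of 9 were higher and 2 lower, with Fgfr3, a receptor of growth plate cartilage, at 0.02-fold and 0.06-fold. In the Wnt list 1 of 10 was higher, the secreted Dickkopf relative Dkk3 at 6.72-fold and 3.89-fold, and 1 lower, the Wnt antagonist Frzb at 0.15-fold and 0.16-fold. Wnt5a, a non-canonical ligand, was 1.76-fold and 2.08-fold. Wls itself stood at 209 and 195 CPM, 1.56-fold (1.18 to 2.02) and 1.75-fold (1.35 to 2.24) the other kept cells.

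The next lists, without mural members, are read against 2.30% of all genes higher and 7.92% lower. Of 11 mechanoresponse genes tested, Cdh11, an adhesion molecule of mesenchyme, was higher at 2.83-fold and 2.44-fold, and Ctgf and Panx3 were lower. The stretch-gated channel Piezo2 was 1.85-fold (1.17 to 2.79) and 1.95-fold (1.29 to 2.84). Of 13 immediate early and heat shock genes, 0 were higher and 6 lower (Atf3, Fos, Fosb, Hspa1a, Hspa1b and Ier2). Fos stood at 674 and 949 CPM against 1793 and 2130 CPM in other cells. With mural members, whose Fos was 2965 and 3637 CPM, this list gave 2 lower genes, Hspa1b and Ier2, against 6.51% of all genes. Of 15 proliferation genes and 6 limb patterning genes tested 0 were past the fold, and Mki67, a marker of cycling cells, was detected in 23 of 73 WT and 26 of 90 Bmx-CreER Wls non-mural members.

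Marker genes of other cell types were mostly lower than in the other kept cells, of which cartilage cells are the largest part. All 11 chondrocyte markers were lower in both libraries, as were 5 of 5 osteoblast, 7 of 7 endothelial and 6 of 6 blood cell markers tested, and 4 of 5 joint surface markers. Over all genes tested without mural members, 7.92% were lower. Of 9 fibroblast markers tested 0 were past the fold. Over the whole lists, in non-mural members, skeletal muscle markers summed to 7.21 and 20.7 CPM with 12 and 8 of 13 genes at 0. Endothelial markers summed to 28.8 and 41.4 CPM, blood cell markers to 36.0 and 11.8 CPM, Schwann cell markers to 10.8 and 14.8 CPM and erythroid markers to 28.8 and 0 CPM. Chondrocyte markers summed to 3825 and 5206 CPM, above the 2696 and 3307 CPM of fibroblast-like cells. Their medians were 4 and 3 UMIs per non-mural member, against 1 and 1 per fibroblast-like cell.

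The lowest abundant genes were cartilage and bone genes. Col10a1, of hypertrophic cartilage, gave 5 UMIs in WT and 2 in Bmx-CreER Wls non-mural members, against 3618 and 3177 CPM in other cells. Col2a1, the main cartilage collagen, was 0.07-fold in both libraries and Col9a1 0.06-fold and 0.08-fold. The remainder of this set were Lect1, Col9a2, Col9a3, Ibsp and Comp. Cartilage transcripts were uneven among members, with Col2a1 at a median of 1 and 2 UMIs and a highest cell of 302 and 288, and Matn1 in 3 and 8 cells only, at up to 75 and 103 UMIs.

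**Figure D3:**
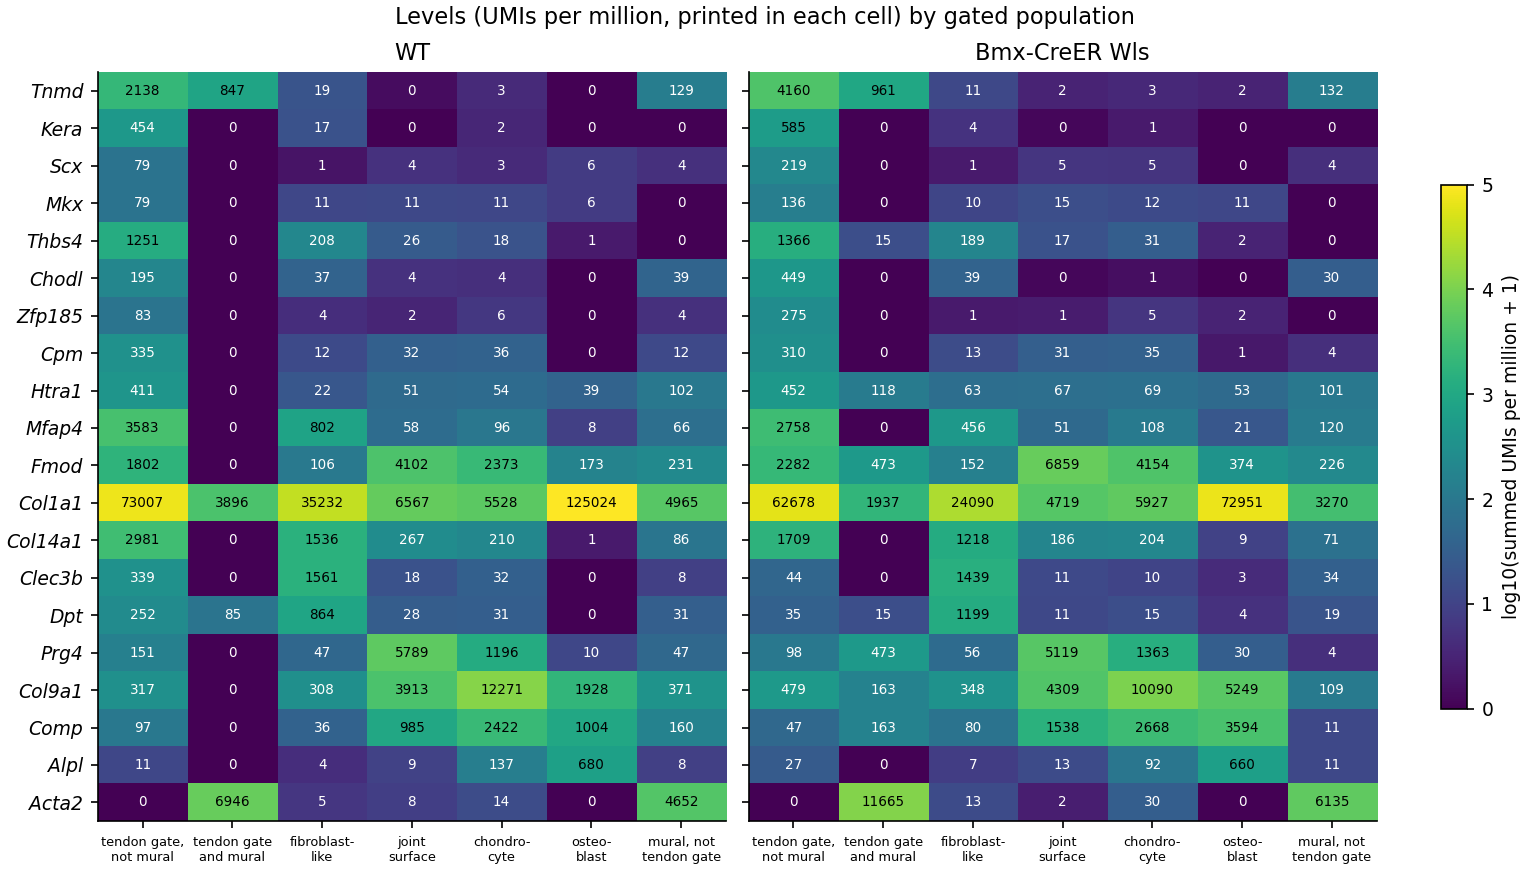
Levels of 20 genes in 7 gated populations of WT (left) and Bmx-CreER Wls (right), printed in each cell as CPM and coloured by log10 of that value plus 1. Thbs4 is at 1251 and 1366 CPM in non-mural members against 208 and 189 CPM in fibroblast-like cells, Acta2 is at 0 in non-mural members, and Fmod is highest in joint surface cells.

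Fibroblast-like cells were the most like population, and they differ from members by a gate of Clec3b, Dpt and Ly6a. Against them, 51 of 4590 genes tested (1.11%) were at least 2-fold higher in members of both libraries and 156 (3.40%) at most 0.5-fold. Without mural members the counts were 47 of 4433 (1.06%) and 189 (4.26%). Of the 10 genes with the largest ratios, Myh11, Acta2, Tagln, Rgs5 and Notch3 were carried by the mural members. The others were Zfp185, Cpm, Itgbl1, Fmod and Wif1.

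Fmod differed between members and fibroblast-like cells in level and in detection. It was 17.0-fold (14.6 to 19.8) and 15.0-fold (13.0 to 17.4) higher in non-mural members, with 106 and 152 CPM in fibroblast-like cells, and it was detected in 64.4% and 90.0% of members against 7.46% and 10.6% of fibroblast-like cells. Depth differed little, with medians of 3616 and 3682.5 UMIs in fibroblast-like cells. Cpm was 27.9-fold and 23.4-fold higher, Htra1 18.6-fold and 7.17-fold, Mkx 7.32-fold and 13.5-fold, and Thbs4 6.01-fold (5.23 to 6.90) and 7.24-fold (6.24 to 8.4). Wif1, a secreted Wnt inhibitor, stood at 97.3 and 222 CPM against 12.4 and 14.5 CPM, 7.83-fold (4.50 to 13.6) and 15.3-fold (9.46 to 25.5).

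In this comparison 7 of 21 tendon matrix genes tested were higher (Bgn, Cilp, Ecm2, Fmod, Thbs2, Thbs4 and Tnc) and Prelp lower. Tnc encodes the tendon glycoprotein tenascin-C and Cilp a matrix protein of cartilage and tendon. Of 19 collagens 6 were higher and 2 lower. Over all genes tested against fibroblast-like cells without mural members, 1.06% were higher and 4.26% lower. Col1a1 was 2.07-fold and 2.60-fold higher and Col11a1 5.04-fold and 5.12-fold, while Col3a1 was 0.85-fold in both libraries. Of 10 fibroblast markers, 8 were lower, among them Dlk1, an EGF-like protein of fetal mesenchyme, at 0.44-fold and 0.25-fold. Clec3b, Dpt and Ly6a of this list define the fibroblast-like gate. The forelimb gene Tbx5 was at 3.60 and 8.87 CPM in members, levels that rest on very few UMIs, against 68.6 and 66.3 CPM. Of the 10 genes with the smallest ratios, 5 (Ahr, Aldh1a3, Clic5, Has1 and Krtdap) had 0 UMIs in members of both libraries.

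Against chondrocyte-gate cells, 171 of 4318 genes (3.96%) were higher and 305 (7.06%) lower, and without mural members 161 (3.89%) and 314 (7.58%) of 4140. Against osteoblast-gate cells the counts were 408 of 4070 (10%) and 271 (6.66%), and without mural members 370 (9.60%) and 279 (7.24%) of 3853. Against joint surface cells, gated on Prg4, Cytl1 and Clic5, they were 128 of 4609 (2.78%) and 300 (6.51%), and without mural members 112 (2.54%) and 320 (7.27%) of 4402.

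Type I collagen did not set members apart from osteoblast-gate cells. Col1a1 in non-mural members was 0.58-fold the osteoblast level in WT and 0.86-fold in Bmx-CreER Wls, with 125024 and 72951 CPM in osteoblasts. Col3a1, in contrast, was 32.9-fold (29.7 to 36.6) and 10.7-fold (10.05 to 11.5) higher, and Postn stood at 22.1 and 42.6 CPM in osteoblasts. Alpl, the alkaline phosphatase of mineralising cells, was 0.02-fold and 0.04-fold, and all 8 osteoblast markers tested were lower. Ifitm5, Alpl and Bglap of this list define the osteoblast gate, so their low levels in members are no finding. Of 12 proliferation genes tested against osteoblasts, 10 were higher in members, and osteoblast-gate cells were deeper, with medians of 6600 and 7267 UMIs. Over all genes tested against osteoblasts without mural members, 9.60% were higher and 7.24% lower.

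Joint surface cells had more Fmod than members. Their Fmod stood at 4102 and 6859 CPM, so that members were 0.44-fold (0.40 to 0.48) and 0.33-fold (0.31 to 0.36). Mfap4 was 61.7-fold and 54.2-fold higher in non-mural members than in joint surface cells, Thbs4 48.7-fold and 80.9-fold, and Chodl gave 4.05 and 0.234 CPM in joint surface cells. Cd44, the hyaluronan receptor, was 3.05-fold and 2.36-fold higher.

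Gates overlapped to different degrees. In WT 16 members (21.1%) also passed the fibroblast-like gate, and in Bmx-CreER Wls 2 (1.90%). The chondrocyte gate was passed by 27 members in each library, 4 of them mural in Bmx-CreER Wls, and the joint surface gate by 3 in each. None passed the osteoblast, endothelial or blood gate. Doublets were kept, and the part of joined cells in these overlaps was not tested.

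Members were then divided by whether they held a Kera UMI, 33 with and 40 without in WT and 50 with and 40 without in Bmx-CreER Wls, mural members left out. Kera is a rule gene, so a cell with 2 Tnmd UMIs needed Kera or Scx to enter. Of 2126 genes tested 12 (0.564%) were at least 2-fold higher with Kera in both libraries and 26 (1.22%) at most 0.5-fold. Wif1 had the largest ratios of the genes shown, 8.21 (2.49 to 42.6) and 6.5 (3.22 to 14.8). Fmod was 2.22-fold (1.83 to 2.7) and 2.24-fold (1.91 to 2.63) higher, at 2497 and 3084 CPM with Kera. Cpm was 2.64-fold and 2.99-fold, Htra1 2.41-fold and 2.68-fold, and Piezo2 2.91-fold and 2.66-fold (4.50-fold in Bmx-CreER Wls without the cell with most of its UMIs). Chst5, a sulfotransferase of carbohydrate chains named after its values were seen, was 4.27-fold (1.71 to 12.7) and 3.84-fold (1.55 to 11.4). Prg4, the joint lubricant lubricin, was 3.76-fold and 4.96-fold, but 1 Kera-positive cell per library held 24 of 42 and 23 of 33 UMIs, and without it the ratios were 1.07 and 0.93.

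Thbs4 did not follow Kera, at 0.95-fold (0.77 to 1.18) and 1.19-fold (0.99 to 1.44), intervals that hold 1. Genes lower with Kera included Col8a1 at 0.07-fold and 0.14-fold, Penk, which encodes proenkephalin, at 0.34-fold and 0.19-fold, Gpc3, the cell surface proteoglycan glypican-3, at 0.49-fold and 0.26-fold, and S100a6 at 0.39-fold and 0.38-fold. Wnt5a was 0.47-fold (0.20 to 1.03) and 0.38-fold (0.18 to 0.76). Of 7 chondrocyte markers tested 5 were lower, but single cells carried part of this: without the cell holding most UMIs of the gene in each library, a setting chosen after the data were seen, 3 remained past the fold (Col9a1, Col9a2 and Matn1). Col2a1 went from 0.43-fold and 0.42-fold to 1.92-fold in WT and 0.77-fold in Bmx-CreER Wls, since 1 WT cell without Kera held 302 of 544 UMIs and 1 Bmx-CreER Wls cell without Kera 288 of 900. Col9a3 likewise went to 1.35-fold and 0.70-fold, and Wnt5a to 0.55-fold and 0.42-fold. This setting takes out only 1 cell per library. Separate Bmx-CreER Wls cells without Kera, Scx or Chodl held 103 and 62 Matn1 UMIs and 69 and 65 Col9a1 UMIs. Another WT cell without these 3 genes held 17 Col9a1 UMIs. The ratios of Col9a1 and Matn1 can thus still rest on few cells. Median depth was close, 3651 against 3449.5 UMIs in WT and 3520.5 against 3594.5 in Bmx-CreER Wls.

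**Figure D4:**
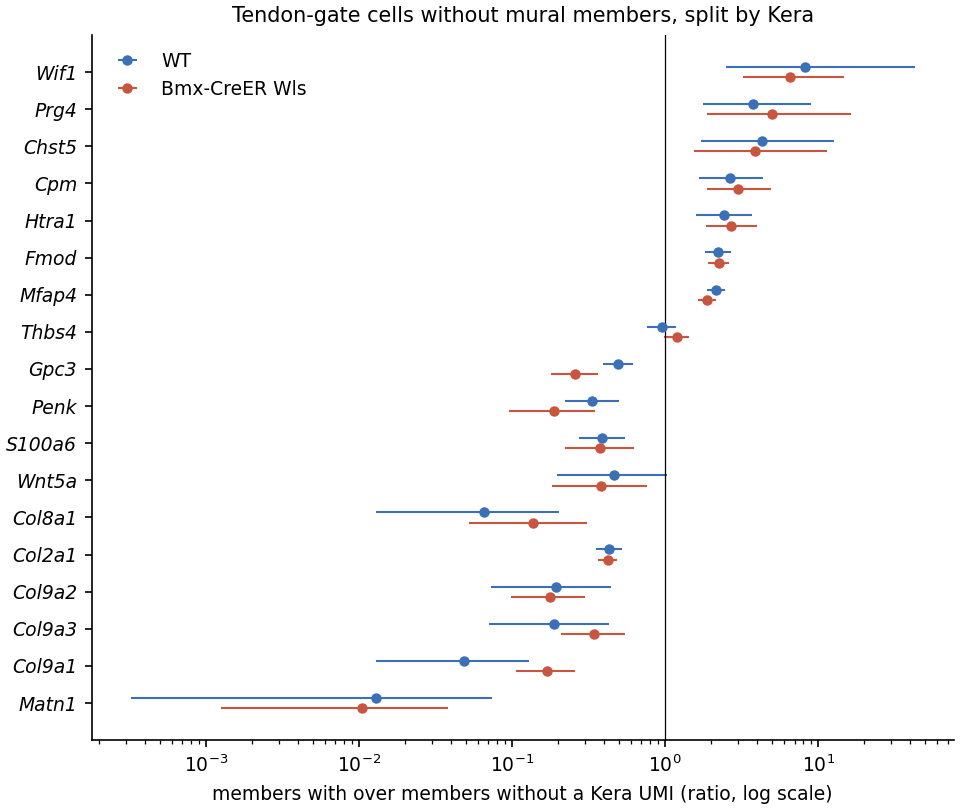
Ratio of levels in non-mural members with a Kera UMI over those without, on a log axis with exact 95% intervals, for WT (blue) and Bmx-CreER Wls (red). Wif1 lies at 8.21 and 6.5 and Fmod at 2.22 and 2.24, Thbs4 holds 1 in both libraries, and cartilage genes such as Matn1, found in 3 and 8 cells, lie below 1. Prg4, Col2a1 and Col9a3 were no longer past the fold in both libraries without the cell with most of their UMIs in each.

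Other divisions gave fewer genes. With against without an Scx UMI (16 and 57 cells in WT, 38 and 52 in Bmx-CreER Wls), 1 of 1103 genes (0.0907%) was higher and 14 (1.27%) lower, among them Lum at 0.27-fold and 0.18-fold and 6 of 7 chondrocyte markers. Scx is a rule gene, so this division too is drawn from values that chose the cells. Without the cell with most UMIs of the gene in each library 4 of these markers remained past the fold (Col9a1, Col9a3, Hapln1 and Matn1). Col2a1 in WT went from 0.39-fold to 1.01-fold, while Col9a2 in WT went from 0.28-fold to 0.64-fold. As in the division by Kera, the ratios of Col9a1 and Matn1 can still rest on few cells. With against without an Mkx UMI, 0 of 1094 (0%) were higher and 4 (0.366%) lower. With against without a Chodl UMI (21 and 52 cells, 41 and 49), 9 of 1304 (0.690%), Chodl itself included, were higher and 15 (1.15%) lower. Among those higher with Chodl were Cilp, a matrix protein, at 4.33-fold (2.28 to 8.54) and 2.59-fold (1.72 to 4.00), or 2.62-fold and 2.44-fold without the cell with most of its UMIs, Spon2 at 3.15-fold and 2.72-fold, Basp1 at 2.39-fold and 3.24-fold, and Zfp36 at 3.37-fold and 3.15-fold. All 7 chondrocyte markers tested were lower with Chodl, and 5 of them remained past the fold without the cell with most UMIs of the gene in each library. The exceptions were Col2a1, which went from 0.26-fold to 0.66-fold in WT, and Acan, which went from 0.49-fold to 0.55-fold in WT. Among the 5, Col9a1 and Matn1 can again rest on few cells.

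Non-mural members were also ranked by their Tnmd level into 3 groups of near equal size. Tnmd chose the cells, so the values of this division are a description of the members along the rule's own gene. In the highest against the lowest group, 7 of 1184 genes (0.591%) were higher in both libraries and 36 (3.04%) lower. Htra1 was 3.35-fold (2.06 to 5.62) and 2.11-fold (1.40 to 3.24), and 2.93-fold and 1.82-fold without the cell with most of its UMIs in each library, and Cilp 6.38-fold and 2.07-fold, or 3.86-fold and 2.65-fold without that cell. Lower with high Tnmd were Gpc3 at 0.16-fold and 0.10-fold, Penk at 0.19-fold and 0.05-fold, Lum (lumican) at 0.09-fold and 0.20-fold, and Plagl1, an imprinted zinc finger gene, at 0.47-fold and 0.22-fold. Col1a1 was 1.57-fold and 1.27-fold, and Thbs4 2.7-fold and 1.64-fold. Chodl differed between the libraries, at 8.10-fold (3.61 to 21.3) in WT and 0.85-fold (0.56 to 1.30) in Bmx-CreER Wls.

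The 27 WT and 23 Bmx-CreER Wls non-mural members that passed the chondrocyte gate were set against the rest. Of 1570 genes 16 (1.02%) were higher and 14 (0.892%) lower, and Acan, Col9a1 and Matn3, which define that gate, are no finding. Fmod was 3.41-fold (2.80 to 4.16) and 2.19-fold (1.90 to 2.53) higher, Wif1 2.81-fold and 3.89-fold (6.24-fold in WT without the cell with most of its UMIs) and Ecm2 4.11-fold and 3.98-fold. Egr1 was 0.33-fold and 0.38-fold, Zfp36 0.41-fold and 0.14-fold (0.51-fold and 0.18-fold without the cell with most of its UMIs in each library) and Cilp 0.30-fold and 0.22-fold. Tnmd in these cells was 1.5-fold and 0.93-fold that of the rest.

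Between the libraries, 19 of 458 genes with at least 200 UMIs (4.15%) were at least 2-fold higher in Bmx-CreER Wls members and 14 (3.06%) at most 0.5-fold. The median ratio of these genes was 1.07. Without mural members 11 of 385 (2.86%) were higher and 12 (3.12%) lower. Among all other kept cells the counts were 81 (0.728%) and 73 (0.656%) of 11121, and in fibroblast-like cells 24 (0.676%) and 16 (0.451%) of 3551. Those sets hold many more cells, so a gene's ratio in them varies less.

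Mural members carried the largest ratios. Tagln was 7.31-fold (5.25 to 10.4), Acta2 6.86-fold and Myl9, a myosin light chain of smooth muscle, 4.67-fold higher in all Bmx-CreER Wls members. Without mural members Tagln gave 4 and 2 UMIs, Acta2 0 in both libraries, and Myl9 had a ratio of 1.30 (0.685 to 2.55).

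Jun, Egr1, Zfp36 and Basp1 differed between the libraries in the non-mural members. Jun stood at 943 CPM in Bmx-CreER Wls and 249 CPM in WT, a ratio of 3.79 (2.91 to 4.99), against 1.20 in other kept cells. Egr1, which also regulates tendon collagen genes, was 3.20-fold (2.64 to 3.89) higher, against 1.36-fold in other cells. Zfp36, which promotes decay of early response mRNAs, was 2.44-fold (1.78 to 3.40) and Basp1 2.94-fold (2.31 to 3.76) higher. Junb was below the count minimum, with 10 UMIs in WT and 124 in Bmx-CreER Wls. Fos, in contrast, was 1.41-fold (1.17 to 1.70). Of the 4 immediate early and heat shock genes tested, Jun and Zfp36 were past the fold, against 2.86% of all genes higher.

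Rps3a1, a ribosomal protein gene, was 5.56-fold (3.70 to 8.66) higher in non-mural Bmx-CreER Wls members and 2.05-fold in other kept cells. Its near-identical copy Rps3a3 was 0.64-fold (0.45 to 0.91), and reads could have been split between both genes, so either value is uncertain. Summed over both genes the ratio was 1.93 (1.52 to 2.45), against 1.28 in other kept cells.

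Other named genes were lower in Bmx-CreER Wls. Without mural members, Plagl1 was 0.28-fold (0.24 to 0.33), against 1.21-fold in other kept cells, and Gpc3 0.40-fold (0.33 to 0.47) against 1.24-fold. Vcan, encoding the proteoglycan versican, was 0.36-fold (0.27 to 0.48), S100a6 0.36-fold, Fbn1, encoding the microfibril protein fibrillin-1, 0.40-fold, Penk 0.44-fold and Nov, a matricellular gene, 0.45-fold. Fbn1 and Nov were also lower in other kept cells, at 0.63-fold and 0.54-fold. The fibroblast genes Clec3b and Dpt, below the count minimum, stood at 339 and 252 CPM in WT and 44.3 and 35.5 CPM in Bmx-CreER Wls.

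Clec3b moved with this comparison, with a UMI in 20 of 73 WT and 3 of 90 Bmx-CreER Wls non-mural members. Without members that held one, 11 of 304 genes (3.62%) were higher and 5 (1.64%) lower in Bmx-CreER Wls. Plagl1 was then 0.34-fold, Vcan 0.41-fold, Penk 0.53-fold, Nov 0.71-fold and Fbn1 0.73-fold, while Jun was 4.42-fold and Egr1 5.16-fold. Without members that passed the chondrocyte gate, 4 of 215 (1.86%) were higher and 18 (8.37%) lower.

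**Figure D5:**
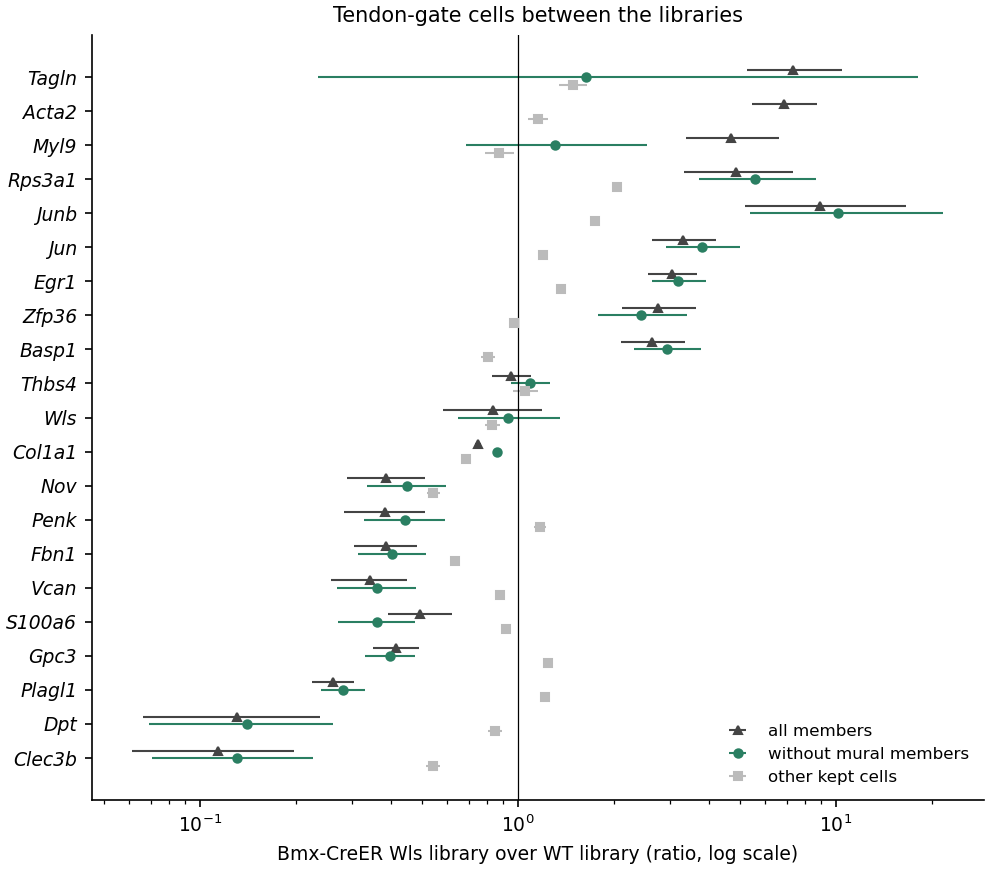
Ratio of levels, Bmx-CreER Wls over WT, on a log axis with exact 95% intervals, in all members (triangles), non-mural members (circles) and other kept cells (squares). Tagln, Acta2 and Myl9 lie at 7.31, 6.86 and 4.67 in all members, and the intervals of Tagln and Myl9 hold 1 without mural members, Jun lies at 3.79 in non-mural members, Plagl1 at 0.28, and Thbs4 and Wls hold 1 in non-mural members; Acta2 has no circle, as it was at 0 UMIs in both libraries.

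Tendon genes outside the rule were also compared between the libraries. In non-mural members Thbs4 had a ratio of 1.09 (0.948 to 1.26), Mkx 1.72 (1.01 to 2.99), Fmod 1.27 (1.13 to 1.42), Col1a1 0.86 (0.84 to 0.88), Mfap4 0.77 and Postn 0.68. Chodl was at 2.31-fold (1.68 to 3.21) in members and 0.56-fold in other kept cells. None of the 13 tendon matrix or 14 collagen genes tested was past the fold, against 2.86% higher and 3.12% lower over all genes. Wls was at 209 CPM in WT and 195 CPM in Bmx-CreER Wls, a ratio of 0.93 (0.65 to 1.35), and its ratio in other kept cells was 0.83. The rule gene Tnmd stood at 2138 CPM (1969 to 2317) in WT and 4159.65 CPM (3945 to 4383) in Bmx-CreER Wls, given as a description since it chose the cells.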

How the data were processed

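For each library the authors deposited 1 table of raw UMI counts, with genes and cell barcodes as its margins and nothing normalized, made with bcl2fastq 2.19.1.403, UMI-tools 1.0.1, STAR 2.7.1a on mm10 and featureCounts 1.6.4 (Subread), per the labels and methods. Totals per library are the depths given above. Cells were kept as the methods state; doublets were not removed, and no gate-passing barcode was lost to the filter.

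UMIs were summed over the cells of a population and divided by its total. Levels carry exact Poisson, shares Clopper-Pearson and ratios conditional binomial intervals, at 95%. Past the fold means a ratio of at least 2 or at most 0.5 in each library, among genes with at least 10 UMIs expected in the smaller population of each, or, between libraries, with at least 200 UMIs in both together. Mitochondrial and haemoglobin genes, Y-linked genes, the X-inactivation genes Xist, Tsix and Jpx and the 3 rule genes were not counted. Shares were repeated with cells thinned to 1000 UMIs (seed 1). No p-value was computed, since each genotype has 1 library. The fold rule was run on simulated counts with counting error only, as a check of the code and not of these results.

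Other gates were, in UMIs per cell: fibroblast-like, Clec3b at least 2 and Clec3b, Dpt and Ly6a at least 3; chondrocyte, Acan at least 2 and Acan, Col9a1 and Matn3 at least 3; osteoblast, Ifitm5 at least 2 and Ifitm5, Alpl and Bglap at least 3; joint surface, Prg4 at least 2 and Prg4, Cytl1 and Clic5 at least 3; endothelial, Cdh5 at least 1 and Cdh5, Pecam1 and Emcn at least 3; blood, Ptprc at least 1 and Ptprc, Laptm5 and Coro1a at least 3. Members of the tendon gate were taken out of them. Named genes are those of 22 gene lists (304 of 311 genes are in the tables) and the extremes of each comparison: the 20 largest and 8 smallest ratios against other cells, the 10 largest and 10 smallest against fibroblast-like cells and the 5 largest and 5 smallest between libraries. Members and lists were chosen with earlier results of these data known. Alternatives covered the gate, the cell filter, doublets, depth, scaling and the count minimum. Python 3.11.15, numpy 2.4.6, pandas 2.3.3 and scipy 1.17.1 were used.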

Additional observations from a re-analysis of the deposited data

Results flagged for a closer look

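Of the 216 listed or named genes tested, 13 differed from the other kept cells in opposite directions in the 2 libraries. Every interval excluded 1, both with and without mural members. The remaining genes were not searched for this. Plagl1, Vcan, Gpc3 and S100a6 were in that set as extremes between these same libraries, so their opposite directions were partly chosen. The difference between the libraries was not tested, as each genotype has 1 library, and the composition of the other kept cells also differed. Over all members, 10 genes were higher in WT and lower in Bmx-CreER Wls. Clec3b was 1.74-fold and 0.367-fold the other cells, Dpt 1.75-fold and 0.269-fold, and Dlk1 1.13-fold and 0.471-fold, all 3 being fibroblast markers. The matrix genes Fmod, Lum and Vcan were at 1.63-fold and 0.743-fold, 1.41-fold and 0.443-fold, and 1.66-fold and 0.645-fold. Gpc3 was 1.61-fold and 0.537-fold, Plagl1 1.26-fold and 0.273-fold, S100a6 1.28-fold and 0.686-fold, and the patterning gene Hoxc10 1.66-fold and 0.667-fold. The remaining 3 genes encode transcription regulators and ran the other way, with Egr1 at 0.544-fold and 1.21-fold, Egr2 at 0.222-fold and 1.63-fold and Id3 at 0.669-fold and 1.38-fold.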

How the results depend on the processing

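No paired analysis was possible because each genotype has 1 library, so no library could be left out either. With a stricter gate (Tnmd at least 3, sum at least 5) the shares were 0.767% and 1.25%, 421 genes were past the fold against osteoblasts (679 before) and 9 were lower in Bmx-CreER Wls (14 before). With a looser gate (Tnmd at least 1, sum at least 2) the shares were 1.95% and 2.02%. A gate on Kera and Scx without Tnmd took 0.227% and 0.347% of cells, with 31 genes higher and 100 lower than in other cells, 121, 167, 144 and 159 past the fold against fibroblast-like, chondrocyte, osteoblast and joint surface cells, and 0 higher and 1 lower in Bmx-CreER Wls. This gate holds far fewer cells, so fewer genes passed the count minimum. Without members passing the chondrocyte, osteoblast, endothelial or blood gate, the shares were 0.854% and 1.18%, with 136 genes past the fold against fibroblast-like cells and 439 against osteoblasts, and 12 higher in Bmx-CreER Wls (19 before). Without the deepest 10% of cells, 73 genes were higher than in other cells (115 before). Settings chosen after seeing the data gave 11 genes higher in Bmx-CreER Wls without mural members, 11 higher and 5 lower without those and Clec3b-UMI members, and 4 higher without mural and chondrocyte-gate members. A count minimum of 100 gave 43 higher and 26 lower. Thinned shares were 23.7% and 25% for Kera, 9.21% and 14.4% for Scx and 6.58% and 15.4% for Mkx. Without the cell with most UMIs of the gene in each library, chosen after seeing the data, 7 ratios within members changed direction: with against without Kera, Col2a1 (1.92) and Col9a3 (1.35) in WT and Prg4 (0.928) in Bmx-CreER Wls; with against without Scx, Col2a1 in WT (1.01) and Prg4 in Bmx-CreER Wls (2.80); by Tnmd level, Col2a1 in WT (1.72); and by the chondrocyte gate, Matn1 in WT (0). Of the main results, 66 counts or shares stayed, counts within 1.5 times and shares within their 95% interval, and 34 did not. Of the remaining checks, mostly ratios of single genes, 421 stayed the same, 189 moved and 7 changed direction. Members' summed UMIs limit what can be seen of genes at low level.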

Other observations

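WT members with a Clec3b UMI were 20 of the 73 non-mural cells, described here after the values were seen. The division is at 1 UMI of 1 gene and the 20 cells were mixed. Among them, 1 cell held 9 Tnmd, 18 Fmod and 35 Mfap4 UMIs, and another 302 Col2a1 UMIs. Dpt stood at 713 CPM in them and 32.0 CPM in the other 53, and Ly6a gave 30 UMIs against 0. Cd34, a surface marker of stromal progenitors and endothelium, was 5.17-fold (2.98 to 9.33) higher, Fbn1 3.69-fold (2.75 to 4.99), Dlk1 3.04-fold (2.73 to 3.40) and Plagl1 2.37-fold (2.02 to 2.78). Tnmd was 0.31-fold (0.24 to 0.39), Fmod 0.27-fold (0.20 to 0.36), Mfap4 0.47-fold, Thbs4 0.57-fold (0.43 to 0.73) and Col1a1 0.59-fold. Median depth was 4133.5 UMIs with and 3348 UMIs without a Clec3b UMI. Bmx-CreER Wls held 3 such cells, too few to describe.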
